A study of Rattus norvegicus with 6 samples.

Results

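The citrate cycle enzymes examined here were citrate synthase (Cs), the gamma subunit of NAD-dependent isocitrate dehydrogenase (Idh3g), mitochondrial malate dehydrogenase (Mdh2), fumarase (Fh), cytosolic malate dehydrogenase (Mdh1), NADP-dependent isocitrate dehydrogenase of the cytosol and peroxisomes (Idh1) and cytosolic aconitase (Aco1). They were chosen by name, and each probe set that the platform annotation gave to one of them was taken. Of the 7 genes, 6 were represented, by 8 of the 8799 probe sets on the array. Fh had no probe set under its name in the annotation used, so fumarase was not analysed here.

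RNA came from the dorsolateral prostates of male rats of the inbred ACI strain. After 18 months of feeding, 3 rats on a high corn oil diet were compared with 3 rats on a low corn oil diet, and each rat had its own short-oligonucleotide array. Arrays are called high 1 to high 3 and low 1 to low 3 by diet and replicate number. The labels also give the rats' age as 18 months, and both figures are given as the labels have them. The design text calls the low corn oil diet the control. Values were intensities on a linear scale, scaled by the authors to the same trimmed mean on every array. The samples were whole pieces of tissue, in which fewer cells of a type and less RNA per cell cannot be told apart.

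The citrate cycle oxidises acetyl units in the mitochondrial matrix, starting with the joining of acetyl-CoA and oxaloacetate to citrate. Most cells pass citrate straight on through the cycle, whereas the secretory epithelium of the prostate is known for accumulating citrate and releasing it into prostatic fluid. Citrate exported to the cytosol is also the source of acetyl-CoA for fatty acid and sterol synthesis. Several enzymes of the cycle have cytosolic counterparts encoded by other genes, which serve redox exchange, NADPH supply and, for aconitase, iron sensing.

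Array-wide differences were looked at first. Array high 1 had Spearman correlations of 0.928 to 0.950 across tested probe sets with the low corn oil arrays, but of 0.869 and 0.881 with the other high corn oil arrays. The bacterial spike-in controls were brighter on high 1, low 1 and low 2 than on the other 3 arrays. Array high 3 carries a free-text description naming the low diet, while its title and source name place it in the high group, where it was analysed. Secretory genes of the prostate marked the tissue on all 6 arrays. Probasin (Pbsn) read 99574 on high 1, 19851 on high 2 and 21926 on high 3, and 78113 to 82039 on low arrays. Microseminoprotein (Msmb) read 73854, 33652 and 39953 on high 1, high 2 and high 3, and 66835 to 80234 on low arrays. Both were thus lower on high 2 and high 3 than on every other array. Spermine-binding protein (Sbp) read 1891 on high 1, 45313 on high 2, 53056 on high 3, and 6801 to 39729 on low arrays. Transglutaminase 4 (Tgm4) ran from 13870 to 31002 in high corn oil arrays and from 5749 to 41267 in low ones. None of 6 array-level measures, tested with exact permutation, gave an adjusted p under 0.84. The smallest p that 3 against 3 arrays allow is 0.1, so these tests leave array differences unresolved.

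The mitochondrial enzymes were the members whose high corn oil values all lay above their low corn oil values. This held for the 4 probe sets of Cs, Idh3g and Mdh2, with mean intensities 18.0% to 32.2% above the low corn oil mean. The separation rests on the group of high 3, whose labels conflict. With high 3 taken as a low array, only the Mdh2 probe set rc_AI010480_at kept the diets apart. The log2 differences were then 0.28 for Cs, 0.29 for Idh3g, and 0.24 and 0.21 for Mdh2. The cytosolic enzymes Mdh1, Idh1 and Aco1 had tested values that overlapped between the diets. No member passed the test across all probe sets, so these are descriptions of 3 rats against 3 rats and not called differences.

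**Figure D1:**
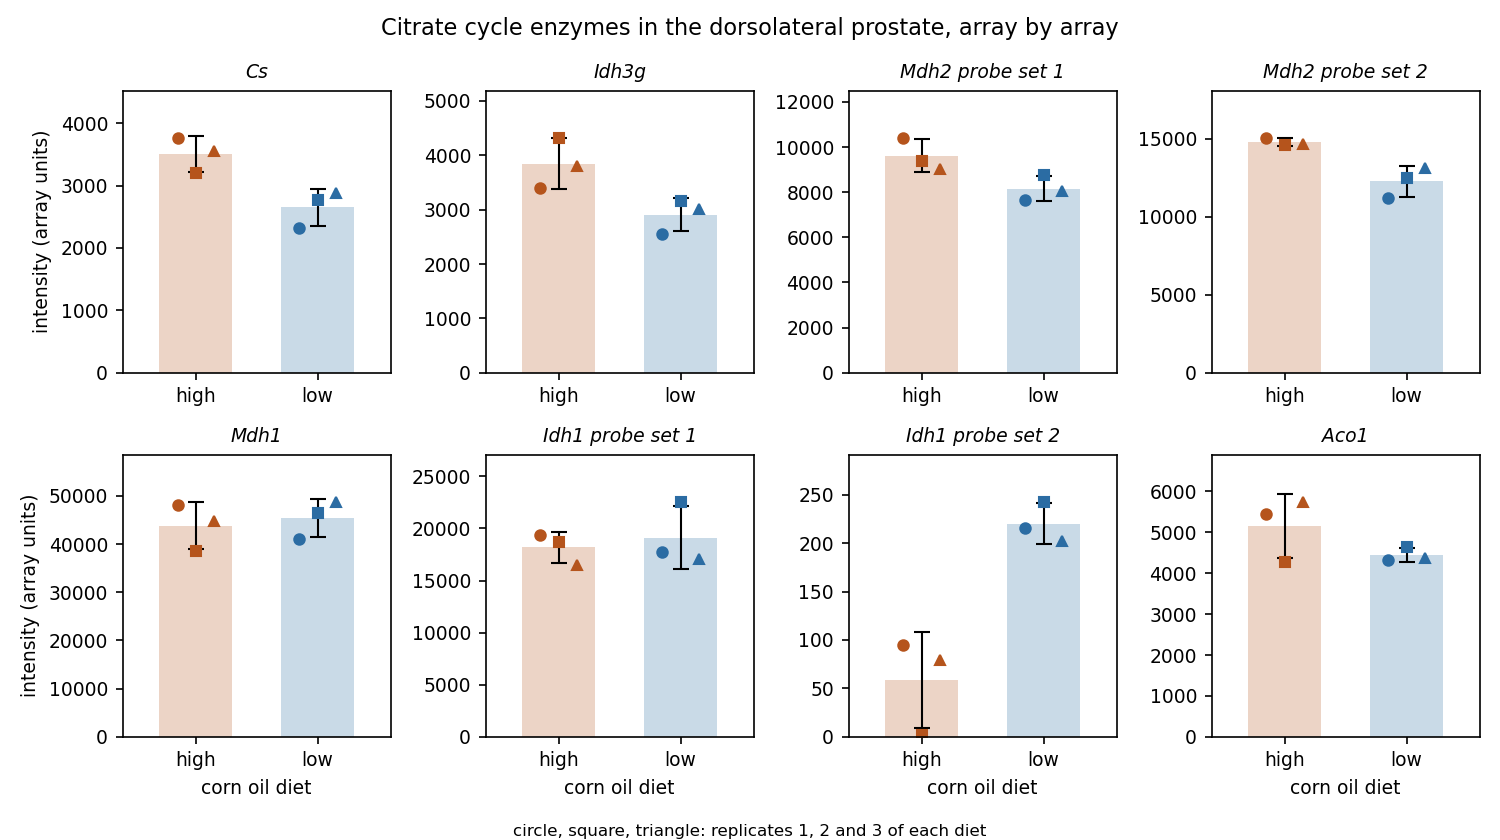
Intensity of each member probe set (vertical axes, linear array units starting at 0) under the high (left) and low (right) corn oil diet. Points are rats, bars are means and whiskers are SD (n = 3 each). All high corn oil points of Cs, Idh3g and both Mdh2 probe sets lie above all low corn oil points, and the dim second Idh1 probe set, with means of 58.6 against 220.1, runs the other way.

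Cs encodes the enzyme that makes citrate. Its probe set, rc_AA799819_at, read 3770, 3208 and 3549 in high corn oil replicates 1, 2 and 3, against 2318, 2770 and 2877 in the low corn oil replicates. The lowest high corn oil array was above the highest low corn oil array. The means were 3509 ± 283 for the high diet and 2655 ± 297 for the low diet (SD, n = 3 each). The log2 difference was 0.39 ± 0.16 (SE) with a 95% interval of 0.01 to 0.76, and the limma adjusted p was 0.494.

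Idh3g encodes a regulatory subunit of the matrix enzyme that turns isocitrate into 2-oxoglutarate and makes NADH. Probe set rc_AA892808_at read 3399, 4326 and 3810 under the high diet, against 2560, 3156 and 3015 under the low diet. The groups were again separate, and the order of the high corn oil arrays was the reverse of that for Cs. Its means were 3845 ± 465 and 2911 ± 312 (SD, n = 3 each), the log2 difference was 0.38 ± 0.17 (SE; 95% interval -0.01 to 0.77), and the limma adjusted p was 0.501.

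Mdh2 encodes the matrix enzyme that regenerates oxaloacetate, the partner of acetyl-CoA in citrate synthesis. Both of its probe sets come from one sequence, so they are not independent readings. The first, rc_AI010480_at, read 10419, 9396 and 9046 under the high diet, against 7657, 8742 and 8066 under the low diet. The second, rc_AI010480_g_at, read 15081, 14593 and 14692 under the high diet, against 11204, 12460 and 13159 under the low diet. Both probe sets kept the diets apart, and the gap was narrower in the first. Their log2 differences were 0.23 ± 0.13 and 0.27 ± 0.13 (SE), with 95% intervals of -0.08 to 0.55 and -0.03 to 0.57. The limma adjusted p was 0.534 for the first and 0.505 for the second.

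The promoter windows of these 3 genes are shown because these were the members whose high corn oil values did not overlap the low ones, although none passed the test. Each window runs from 250 bases before to 50 bases after the annotated transcription start, from RefSeq on build GRCr8, printed 5′ to 3′ on the gene's own strand. Capitals mark matches on either strand to the motifs searched. Cs is at chr7:1348139-1348438 (plus strand), Idh3g at chrX:156675433-156675732 (minus strand) and Mdh2 at chr12:26543792-26544091 (minus strand).
Cs: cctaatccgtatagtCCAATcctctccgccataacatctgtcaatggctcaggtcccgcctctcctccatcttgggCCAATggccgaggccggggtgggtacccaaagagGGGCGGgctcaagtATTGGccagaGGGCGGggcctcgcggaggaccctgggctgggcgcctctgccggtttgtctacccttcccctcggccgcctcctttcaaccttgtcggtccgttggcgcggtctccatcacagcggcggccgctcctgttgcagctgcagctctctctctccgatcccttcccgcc
Idh3g: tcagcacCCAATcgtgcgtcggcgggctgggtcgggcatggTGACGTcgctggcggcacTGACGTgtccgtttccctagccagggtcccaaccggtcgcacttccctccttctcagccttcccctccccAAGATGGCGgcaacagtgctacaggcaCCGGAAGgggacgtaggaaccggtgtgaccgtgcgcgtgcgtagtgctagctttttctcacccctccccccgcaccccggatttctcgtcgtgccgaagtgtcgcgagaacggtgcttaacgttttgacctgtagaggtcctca
Mdh2: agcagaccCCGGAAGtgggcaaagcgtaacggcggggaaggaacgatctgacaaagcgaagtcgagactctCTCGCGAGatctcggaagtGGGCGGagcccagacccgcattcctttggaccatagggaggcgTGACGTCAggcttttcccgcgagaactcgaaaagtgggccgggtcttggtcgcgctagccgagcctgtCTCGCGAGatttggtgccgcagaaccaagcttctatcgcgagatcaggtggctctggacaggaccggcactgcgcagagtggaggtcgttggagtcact

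The motifs were picked after the promoters had been seen, and a match is only a match of letters. The search covered 9 motifs, and no matches of different motifs overlapped. Cs held the Sp1-type GC box GGGCGG at 140 and 116 bases before the start, and CCAAT at 235, 174 and 126 bases before it. GGGCGG was present in 33.1% and CCAAT in 37.5% of 33469 rat promoter windows of the same length. Mdh2 held the octamer CTCGCGAG at 179 and 49 bases before the start, a sequence found in 0.723% of windows. Mdh2 also held TGACGT, the core of the cAMP response element, on both strands as an overlapping pair at 117 and 115 bases before the start, one GGGCGG 160 bases before it, and the ETS-type CCGGAAG 242 bases before it. Idh3g held TGACGT at 209 and 191 bases, CCGGAAG at 94 bases, CCAAT at 243 bases and the YY1-type AAGATGGCG at 121 bases before the start. TGACGT was in 7.94%, CCGGAAG in 8.75% and AAGATGGCG in 1.73% of windows. No motif searched was present in all 3 of these windows.

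Among the cytosolic members, the Mdh1 window held CCAAT once, the Idh1 window held GGGCGG at 2 places and the Aco1 window held GGGCGG at 3, and none held the TGACGT core, the ETS-type or YY1-type letters or the octamer. The Fh window held GGGCGG once, CCAAT at 117 and 66 bases and TGACGT at 41 bases before the start. Letters searched for the NRF1 element (10 long), the PPAR element of the DR1 type (13 long) and the SREBP element (9 long) were in none of the 7 windows. They were in 4.25%, 0.0538% and 1.12% of all windows.

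Mdh1 encodes the cytosolic malate dehydrogenase of the malate-aspartate shuttle. Probe set AF093773_s_at read 48109, 38615 and 44821 under the high diet, against 41065, 46488 and 48822 under the low diet. The diets overlapped in part, with high 2 below every low corn oil array and low 3 above every high corn oil array. The means were 43849 ± 4821 and 45458 ± 3980 (SD, n = 3 each), and the log2 difference of -0.05 ± 0.14 (SE; limma adjusted p = 0.888) had a 95% interval of -0.39 to 0.28. An absent difference is not shown, since that interval takes in the values seen for Mdh2.

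Idh1 encodes an enzyme that makes NADPH from isocitrate outside the mitochondria. Its first probe set, rc_AA892314_at, read 19355, 18746 and 16512 under the high diet, against 17759, 22574 and 17045 under the low diet. The highest and the next to highest arrays were of different diets, and the log2 difference was -0.06 ± 0.16 (SE; 95% interval -0.43 to 0.30; limma adjusted p = 0.880). The second, rc_AA944025_at, was dim, at 94.9, 1.8 and 79.1 under the high diet, against 215.5, 242.8 and 202.1 under the low diet. Its groups did not overlap, but its mean fell short of the intensity minimum of 343 and it was left out of the test. With no minimum its log2 difference was -0.84 ± 0.20 (SE; limma adjusted p = 0.442). The probe sets of this gene therefore disagree in size, and the dim one is near the bottom of the array's range.

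Aco1 encodes the cytosolic aconitase, which without its iron-sulphur cluster acts as iron regulatory protein 1. Probe set rc_AI176621_at read 5444, 4282 and 5750 under the high diet, against 4326, 4646 and 4361 under the low diet. Arrays high 1 and high 3 were above all low corn oil arrays and high 2 was below them. The log2 difference was 0.20 ± 0.16 (SE; 95% interval -0.18 to 0.57; limma adjusted p = 0.633). Its size rested on single arrays, at 0.32 without high 2 and 0.12 without high 3, and at 0.03 with that array counted as low.

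Among the 7 tested member probe sets, 0 passed limma's adjusted threshold of 0.05, as did 0% of the 5244 probe sets tested. At an unadjusted p under 0.05 in limma there was 1 member, Cs, where 9.95% of all tested probe sets were past that level. The high corn oil arrays lay entirely above the low ones in 4 of the 7, which stand for 3 genes, where 8.83% of all tested probe sets did so. Positive log2 differences were seen in 5 of the 7, where 53.9% of all were positive. The median log2 difference was 0.23 over the members and 0.03 over all tested probe sets. Of all tested probe sets, 17.9% had a larger log2 difference than Cs, 18.1% a larger one than Idh3g, and 29.2% and 26.0% a larger one than the Mdh2 probe sets.

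**Figure D2:**
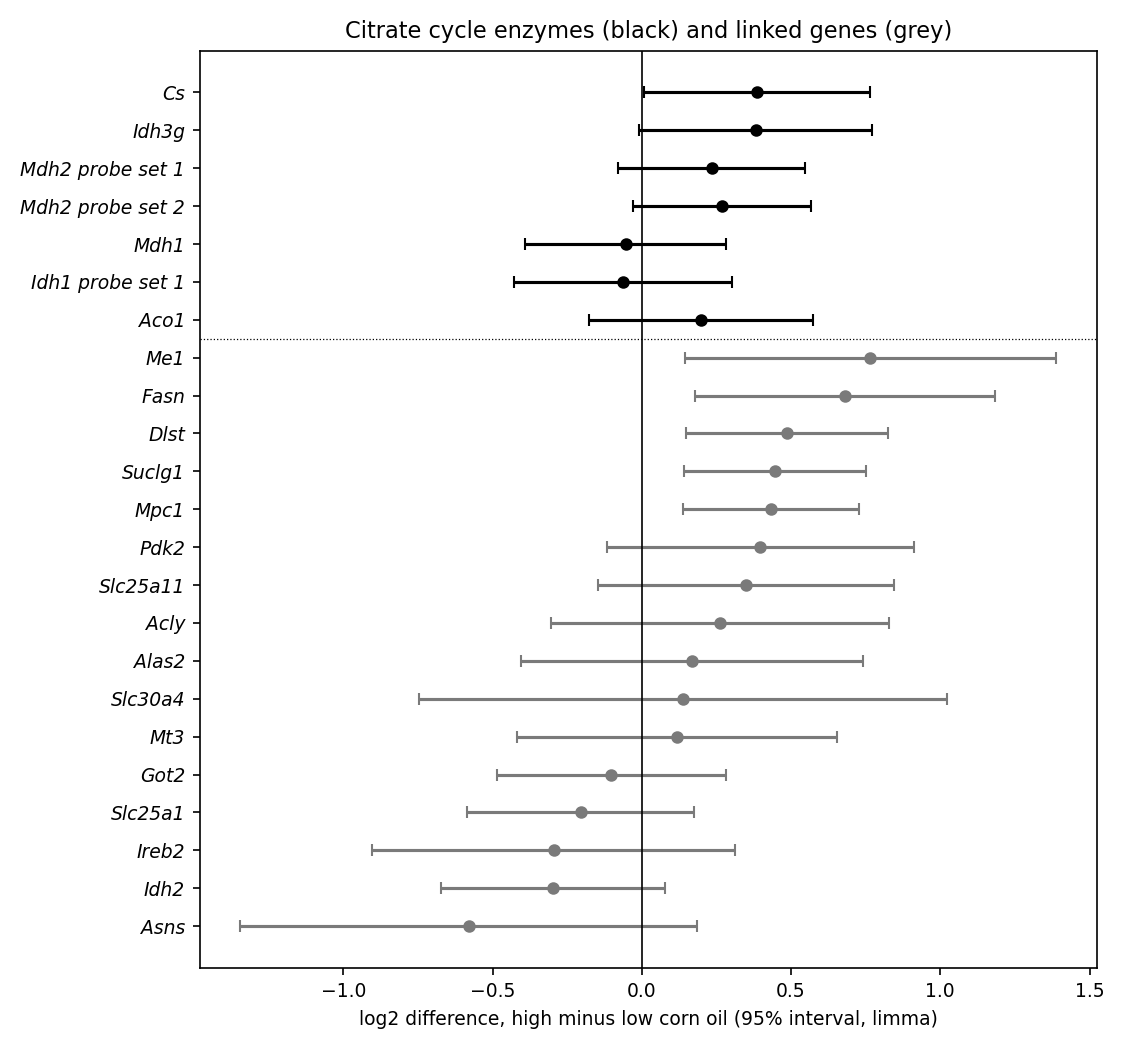
Log2 difference between the diets (high minus low corn oil, horizontal axis) with limma's 95% interval. Tested member probe sets are black, and the linked genes named by rule are grey, each by its brightest probe set. Sdha, Pdha1, Pdhb and the further probe sets of linked genes are not drawn. The interval of Cs, 0.01 to 0.76, is the only black one that does not reach 0 before adjustment, and those of Mdh1 and Idh1 are centred close to 0.

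Leaving out high 1, which resembled the low corn oil arrays, gave log2 differences of 0.33 for Cs, 0.46 for Idh3g, and 0.18 and 0.25 for Mdh2. Mdh1 was then at -0.12, Idh1 at -0.11 and Aco1 at 0.15. No member was called in that setting either, although limma called 214 probe sets in all, and the smallest adjusted p among the members was 0.148, for Idh3g. The split by spike-in signal was also followed on each side. Among the 3 arrays with brighter spike-ins the log2 differences were 0.55 for Cs, 0.24 for Idh3g, and 0.34 and 0.35 for Mdh2. Among the 3 with dimmer spike-ins they were 0.22, 0.41, 0.19 and 0.15. The positive sign of these values follows from the groups not overlapping and adds nothing to it. Mdh1 was at 0.14 on the brighter side and -0.23 on the dimmer side, and Idh1 at -0.05 and 0.05. The brighter side holds 1 high and 2 low corn oil arrays and the dimmer side 2 high and 1 low, and no test was made within either.

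**Figure D3:**
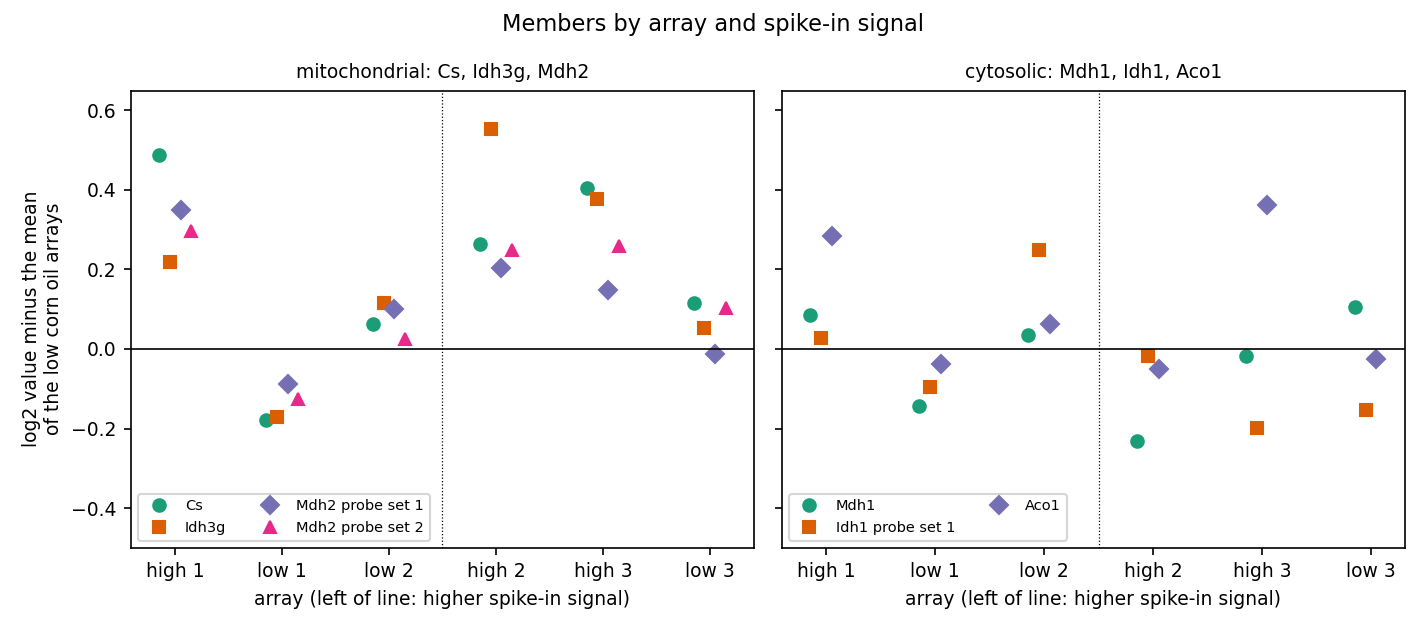
Log2 value of each tested member on each array, minus the mean of the low corn oil arrays (vertical axis), with mitochondrial members on the left and cytosolic ones on the right. Arrays with brighter spike-in controls stand left of the dotted line and those with dimmer ones right of it. Cs, Idh3g and Mdh2 are above every low corn oil value on all 3 high corn oil arrays, from 0.15 to 0.55.

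Among other subunits of the cycle, 3 of 4 tested genes had a log2 difference above 0, where 53.9% of all tested probe sets did, and the median was 0.23. The list held 15 genes, of which 5 had a probe set, and 0 passed the adjusted test. Suclg1, a subunit of succinyl-CoA synthetase, read 11104, 10870 and 12549 under the high diet, against 8769, 8122 and 8274 under the low diet. Its log2 difference was 0.45 ± 0.13 (SE; limma adjusted p = 0.462), and 0.24 with high 3 taken as a low array, and a second probe set gave 0.19 ± 0.17 with overlapping diets. Dlst, the succinyltransferase of the 2-oxoglutarate dehydrogenase complex, read 3935, 4325 and 4331 under the high diet, against 2897, 3175 and 2789 under the low diet, a log2 difference of 0.49 ± 0.14 (limma adjusted p = 0.462). A second Dlst probe set went the other way, at -0.40 ± 0.28, so the gene has no agreed direction. Sdha, the catalytic subunit of succinate dehydrogenase, was at 0.02 ± 0.13 (SE), no higher than the median over all probe sets.

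Idh2, the NADP-dependent isocitrate dehydrogenase of the mitochondria, went the other way from Cs, Idh3g and Mdh2. Its brighter probe set read 4960, 4671 and 4264 under the high diet, against 5345, 6738 and 5180 under the low diet. Its dimmer probe set read 2413, 1896 and 2194 under the high diet, against 2703, 3608 and 3066 under the low diet. In both probe sets every high corn oil array was below every low one, a pattern seen in 6.71% of all tested probe sets. Both come from one sequence, so they are not independent readings. Their log2 differences were -0.30 ± 0.16 and -0.50 ± 0.18 (SE; limma adjusted p = 0.524 and 0.480), and neither passed. The brighter one was at -0.18 without low 2 and at -0.14 with high 3 taken as a low array.

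The pyruvate entry list held genes that bring pyruvate into the cycle and regulators of that step, the inhibiting kinases Pdk1 and Pdk2 among them. Of its genes, 7 of 9 tested, Pdk2 included, had positive log2 differences, where 53.9% of all tested probe sets did. The median was 0.16, against 0.03 over all tested probe sets, and 0 passed the adjusted test. Mpc1, a subunit of the mitochondrial pyruvate carrier, read 28695, 27046 and 30233 under the high diet, against 22774, 19965 and 20918 under the low diet. All 3 high corn oil arrays were brighter, with a log2 difference of 0.43 ± 0.13 (SE; limma adjusted p = 0.462), and 0.27 with high 3 taken as a low array. Pdk2, a kinase that switches off pyruvate dehydrogenase, had probe sets on opposite sides, at 0.40 ± 0.22 and -0.51 ± 0.23, and the first was at 0.22 without high 2. The pyruvate dehydrogenase subunits Pdha1 and Pdhb were at 0.03 ± 0.16 and 0.03 ± 0.19, and their dimmer probe sets at -0.30 ± 0.19 and 0.14 ± 0.42.

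Of the genes that export and use citrate, 3 of 4 tested were positive, where 53.9% of all tested probe sets were. The median log2 difference was 0.47, and 0 passed the adjusted test. Slc25a1, the mitochondrial citrate carrier, read 3763, 3778 and 3672 under the high diet, against 3603, 4735 and 4760 under the low diet, a log2 difference of -0.21 ± 0.16 (SE; limma adjusted p = 0.630), and -0.33 without low 1. Acly, which splits cytosolic citrate into acetyl-CoA and oxaloacetate, read 18113, 30199 and 34437 against 24064, 21055 and 21516. Its diets overlapped at 0.26 ± 0.24 (SE; limma adjusted p = 0.668), with 0.54 without high 1, 0.17 without high 2 and 0.08 without high 3. The other Acly probe sets were at 0.06 and -0.08. Fasn, the fatty acid synthase downstream of Acly, was higher on all 3 high corn oil arrays in both of its probe sets, at 0.68 ± 0.21 and 0.58 ± 0.23 (limma adjusted p = 0.462 and 0.480). Me1, the malic enzyme that turns cytosolic malate into pyruvate and NADPH, was at 0.77 ± 0.27 in its brightest probe set (limma adjusted p = 0.480), and its 3 further tested probe sets ran from 0.12 to 0.54 with overlapping diets. With high 3, whose labels conflict, taken as a low array, the brightest Fasn probe set was at 0.20 and that of Me1 at 0.21.

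In the remaining linked lists 0 genes passed the adjusted test, and their counts of positive genes stand beside 53.9% of all tested probe sets. Of 7 tested genes of aspartate and glutamate supply, 3 were positive, with a median log2 difference of -0.02. Got2, the mitochondrial aspartate aminotransferase that works beside Mdh2 in the shuttle, was at -0.10 ± 0.16 (SE; limma adjusted p = 0.802) in its brightest probe set. A dimmer Got2 probe set read 859.7, 452.4 and 394.5 under the high diet, against 1157, 989.6 and 996.6 under the low diet, so that every high corn oil array was below every low one. Its log2 difference was -0.78 ± 0.29 (limma adjusted p = 0.480). Slc25a11, the 2-oxoglutarate and malate carrier, was at 0.35 ± 0.21 (limma adjusted p = 0.545) in one probe set and at -0.01 ± 0.23 in the other. The first value was 0.57 without high 1, 0.21 without high 3 and 0.05 with high 3 taken as a low array. Asns, the asparagine synthetase, was at -0.58 ± 0.33 (adjusted p = 0.532), and at -0.94 without high 1, -0.38 without high 3 and -0.14 with high 3 taken as a low array. Of 5 tested NADPH genes, Idh1 among them, 3 were positive, with a median of 0.05. Of 4 tested iron genes 1 was positive, with a median of -0.10; Ireb2, the second iron regulatory protein, was at -0.30 ± 0.26 (-0.51 without high 1, -0.11 without high 2 and -0.17 without low 3) and Alas2, the erythroid heme synthesis enzyme, at 0.17 ± 0.24. All 3 tested genes for zinc transport and metallothioneins were positive, with a median of 0.12, of which Slc30a4 was at 0.14 ± 0.38 and Mt3 at 0.12 ± 0.23.

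By likeness over the 6 arrays, 5 genes followed the members' mean standardised log2 profile most closely among 3156 tested genes. That profile was highest on high 1 (0.76) and lowest on low 1 (-1.09), with high 2 (0.02) below low 2 (0.09). They were Dad1, a subunit of the oligosaccharyltransferase, with a Pearson coefficient of 0.995, Hdlbp (vigilin, an RNA-binding protein) with 0.991, the dehydrogenase gene Aldh7a1 with 0.990, the kinase inhibitor gene Pebp1 with 0.983 and the peptide transporter gene Slc15a4 with 0.974. The coefficients describe 6 points picked as the highest of 3156, and the points share arrays and scaling.

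Markers of other cells are given beside these results. All 7 tested fibroblast markers were lower under the high diet, with a summed intensity of 57466 to 78434 in high corn oil arrays and 89997 to 125570 in low corn oil arrays. All 4 tested macrophage markers were lower as well. Of these, C1qb (at most 5869 in high and at least 7267 in low corn oil arrays), C1qc (at most 1695 and at least 2358) and Aif1 (at most 1806 and at least 2246) did not overlap between the diets. Their summed intensity, most of it from Lyz2, overlapped, at 30288 to 49418 in high corn oil arrays and 46622 to 48306 in low corn oil arrays. Epithelial markers were lower in 4 of 7, with sums of 180300 to 272500 in high corn oil arrays and 241310 to 279330 in low corn oil arrays. Among them only Epcam did not overlap between the diets, and it was higher under the high diet. It was at least 15816 in high and at most 15141 in low corn oil arrays, a log2 difference of 0.32. The keratins Krt8 and Krt18 were at -0.04 and -0.20. Skeletal muscle, a tissue rich in cycle enzymes, left markers on every array. They were lower in 7 of 8 tested genes, with sums of 18132 to 43466 in high corn oil arrays and 29477 to 38043 in low corn oil arrays, and Tnni2 and Myh2 were below the intensity minimum. Among the high corn oil arrays the sum was highest on high 2 and lowest on high 1. Idh3g had the same order on these arrays and Cs the opposite one. Among the low corn oil arrays the sum was highest on low 2 and lowest on low 3. There Idh3g was highest on low 2 and lowest on low 1, and Cs highest on low 3 and lowest on low 1. Acta1 was the largest part of the sum on every array, and among the low arrays it was highest on low 1. Taken singly, Ckm, Myl11, Myh4 and Atp2a1 were highest on low 2 and lowest on low 1, as Idh3g was. Acta1, Tnnc2, Tnnt3 and Pvalb were not. Smooth muscle markers were lower in 6 of 7, adipocyte markers in 2 of 3 and seminal vesicle markers in 2 of 2. Of the adipocyte markers, Plin1 was below 0 on all 6 arrays. The part of cell makeup in the members' values was not tested.

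**Figure D4:**
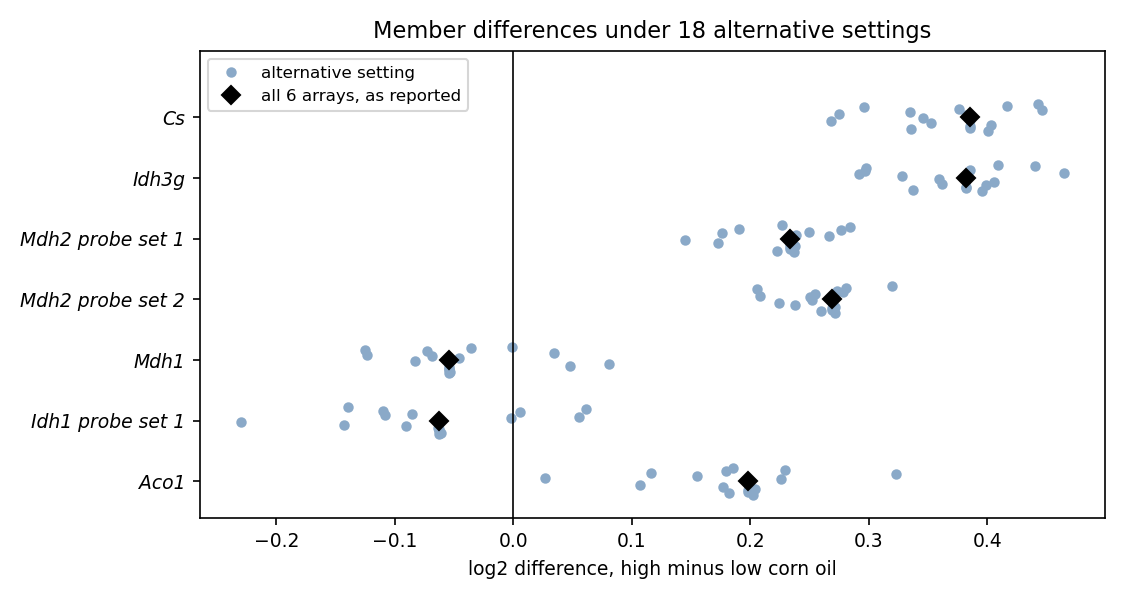
Log2 difference between the diets (high minus low corn oil, horizontal axis) of each tested member under 18 alternative settings (blue circles) and as reported (black diamonds). Cs runs from 0.27 to 0.45 and Idh3g from 0.29 to 0.46, and Mdh1 and Idh1 lie on both sides of 0.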

How the data were processed

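Dorsolateral prostate RNA of 6 rats was measured, 1 array each. The deposited intensity values are linear, 1 per probe set. The submitters' processing notes name MAS5, with no version or settings given in the sources used here. The trimmed mean was 2503 or 2504 on every array, and 18.6% to 23.1% of an array's values were at or below 0. Values below 0 were set to 0 and transformed as log2(value + 156.1), the pseudocount being the median of all values divided by 4, so folds of dim genes are understated. Probe sets with a mean of at least 343 (the 40th percentile), controls left out, were tested (5244 of 8799). The fit was limma 3.58.1 in R 4.3.3 (lmFit, eBayes with intensity trend, two-sided) with p-values adjusted by Benjamini-Hochberg over every tested probe set. It was tested on simulated data with independent noise and spreads shuffled over probe sets. Those data held no deviating array such as high 1. With 3 arrays per diet, their number limits precision.

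Names came from the platform annotation (7006 probe sets with 1 gene, 308 with several, 1426 with none, 59 controls). Through gene identifiers, 6985 were updated to GRCr8 symbols. The members, the gene lists, the markers and the tests were chosen with earlier results of these data known. Lists were described by counts and medians, with the brightest probe set per gene. Named were every member, Acly, Slc25a1, Idh2, Got2 and Me1, the 2 genes of smallest p in each list and the 5 genes most like the members; 1 gene of the rule is not reported here; Sdha, Pdha1 and Pdhb were added after their values were seen, as were the second probe sets of named genes. In the check of replicate numbers, same-numbered arrays of the 2 diets had deviations correlating at -0.05, -0.20 and 0.18, so numbers did not pair arrays. Alternatives changed the pseudocount, intensity minimum, transformation, normalization, trend, array weights, blocks and the group of high 3, and left out each array.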

Additional observations from a re-analysis of the deposited data

How the results depend on the processing

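Of 18 alternative settings, none called a tested member (smallest limma adjusted p 0.148), and the members' median log2 difference stayed between 0.17 and 0.28. Cs, Idh3g, Mdh2 and Aco1 were positive in all 18, at 0.27 to 0.45, 0.29 to 0.46, 0.14 to 0.32 over both Mdh2 probe sets, and 0.03 to 0.32. The filter, trend and replicate block settings leave the difference itself unchanged. For Cs, Idh3g and Mdh2 the sign on leaving out an array follows from the groups not overlapping and adds nothing to it. Over all probe sets limma called 0 as reported (522 at an unadjusted p under 0.05), 9 with no filter, 218 with quantile normalization and high 1 left out, and 0 to 214 when leaving out 1 array each, the 214 without high 1; the cause was not tested. The replicate block called 0 and gave Cs 0.39 (limma adjusted p = 0.525), and it changed no call; replicate numbers did not pair the arrays. Near 0, signs turned. Mdh1 was 0.048 with quantile normalization, 0.081 with it and without high 1, and -0.13 to 0.034 leaving out 1 array each. Idh1 was 0.055 with high 3 taken as a low array, and -0.14 to 0.061 leaving out 1 array each. With high 3 taken as a low array, Acly was -0.081 and Got2 0.086. Leaving out 1 array each, Got2 ran from -0.19 to 0.0065, Mt3 from -0.090 to 0.27, Alas2 from -0.070 to 0.32 and Slc30a4 from -0.11 to 0.40. Mt3 was -0.14 with array weights and Slc30a4 -0.072 with the spike-in block. The filter at the 60th percentile left out Slc30a4. Intensities near 0, as in the second Idh1 probe set, have no detection call here.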
